A study of Mus musculus with 56 samples.

Results

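Bile acid synthesis in the liver was examined through 10 genes, which are the enzymes that turn cholesterol into conjugated bile acids (Cyp7a1, Cyp8b1, Cyp27a1, Cyp7b1, Cyp39a1, Hsd3b7, Akr1d1, Slc27a5 and Baat) and Nr0b2, which encodes the small heterodimer partner SHP. They were chosen by name from the 23813 genes with an expression value, and a value was found for each of the 10. Liver RNA was sequenced from male mice in 3 groups of 4. Hypothyroid WT mice (WT, PTU) ate a low iodine diet with 0.15% propylthiouracil (PTU), a blocker of thyroid hormone synthesis, for 16 days and were given vehicle. Hyperthyroid WT mice (WT, PTU_T3) ate the same diet and were injected intraperitoneally with triiodothyronine (T3), 5 μg each time, during the final 4 to 6 days. Hypothyroid L-NCORdeltaID mice (L-NCOR1ΔID, PTU) carried a liver-specific form of the nuclear receptor corepressor NCOR1 that lacks the domains through which it contacts the thyroid hormone receptor (TR). The paper proposes that the deleted domains may also matter for bringing the corepressor to regulators besides TR. PTU was thus common to the 3 groups, and no group of euthyroid mice or of L-NCOR1ΔID mice given T3 entered the comparisons. The L-NCOR1ΔID line was kept on a mixed C57BL/6;129S background. The sources used here do not state whether the WT mice were littermates, so that genotype and strain background cannot be told apart. Over all its mice, the paper lists a lower mean age and a higher mean liver weight for hypothyroid L-NCOR1ΔID than for hypothyroid WT mice. It gives neither for the sequenced mice, and genotype cannot be told apart from these either. The promoter that drives the deletion is not given in the sources used here.

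Bile acids are made in hepatocytes by a classical and an alternative route. In the classical route CYP7A1 adds a hydroxyl group to cholesterol and sets the rate, and CYP8B1 directs the product towards cholic acid. In the alternative route CYP27A1 first oxidizes the side chain, CYP7B1 hydroxylates the resulting oxysterol, and CYP39A1 does the same for 24-hydroxycholesterol, which CYP46A1 forms. HSD3B7 and AKR1D1 then modify the steroid rings, SLC27A5 activates the acid with coenzyme A and BAAT joins it to taurine or glycine. SHP is an orphan nuclear receptor without a DNA binding domain. Its gene is induced by the bile acid receptor FXR (Nr1h4), and SHP lowers Cyp7a1 and Cyp8b1 transcription through LRH-1 (Nr5a2) and HNF4α. TR is a nuclear receptor that binds direct repeats of the half-site AGGTCA spaced by 4 bases (DR4), and without hormone it can recruit NCOR1 and histone deacetylase 3.

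Promoter sequence is shown for Nr0b2, the gene of this group that fell with T3, because a nuclear receptor of this pathway, LRH-1, binds the core TCAAGG. The 250 bases upstream of its start site (RefSeq, GRCm38.p6, chr4:133553126-133553375, plus strand) were found without a mismatch in mm9 at chr4:133109041-133109290. Capitals mark the exact matches to TCAAGG, which are 2 on the strand of the gene, at -68 to -63 and -35 to -30 from the start site.
Nr0b2: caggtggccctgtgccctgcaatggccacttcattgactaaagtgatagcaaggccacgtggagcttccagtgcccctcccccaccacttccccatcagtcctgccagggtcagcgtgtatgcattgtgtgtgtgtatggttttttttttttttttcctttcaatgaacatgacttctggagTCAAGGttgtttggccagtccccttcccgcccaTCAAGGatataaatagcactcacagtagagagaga

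TCAAGG occurred at least 1 time in 12.5% and the half-site AGGTCA in 14.0% of 32851 mouse promoters of this length, searched on both strands. The share of promoters with 2 matches, as in Nr0b2, was not counted. Promoter windows were matched for 5 of the 10 genes (Cyp8b1, Cyp27a1, Hsd3b7, Akr1d1 and Nr0b2). That of Akr1d1 held 2 AGGTCA matches on the minus strand and 1 TCAAGG match that overlapped one of them, whereas those of Cyp8b1, Cyp27a1 and Hsd3b7 held neither motif. No exact DR4 or DR1 (2 half-sites AGGTCA spaced by 4 bases or by 1) was found in these 5 windows, and these repeats occurred in 0.0152% and 0.0335% of the 32851 promoters.

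To place the best DR4-like sequence at each start site, the H3 acetylated region that covers it was scanned in mm9 for the largest number of matching half-site bases out of 12. The half-sites are in capitals and the spacer is in lower case. Where several windows scored alike, the one nearest to the start site is shown, and these 6 genes are given because 4 of them were called with T3 and the other two, Cyp7a1 and Cyp8b1, are the classical genes on which SHP acts.
Cyp7a1: TGGTCAcccaAGTTCA
Cyp27a1: AGGTCAagcaAAGGCA
Cyp39a1: AGGTCAggtcAGGACC
Cyp7b1: AGGTCAgcatTGGACA
Nr0b2: AGGCTAgccaAGGTCA
Cyp8b1: AGGTCAtgggAGGGCA

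The Cyp8b1 sequence matched 11 of 12 bases and lay 3142 to 3157 bp downstream of the start site, past the end of the transcript (chr9:121822266-121822281, minus strand). A score of 11 or more was reached by 21.5% of the 669 regions of like length and by 4.48% of 37200 acetylated regions. The other 5 sequences matched 10 of 12. That of Cyp7a1 lay 58 to 73 bp upstream of the start site (chr4:6202836-6202851, minus strand), where a direct repeat bound by the oxysterol receptor LXR is known in rodents. Upstream matches were also found at Cyp27a1 (322 to 337 bp, chr1:74759811-74759826), Cyp39a1 (407 to 422 bp, chr17:43804037-43804052), Cyp7b1 (1025 to 1040 bp, chr3:18144363-18144378) and Nr0b2 (1131 to 1146 bp, chr4:133108145-133108160), the last 4 on the plus strand. A score of 10 or more was usual in regions of this length, in 71.6% to 93.7% of regions as long as those of these 5 genes, so that the matches did not set these genes apart.

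Expression was given as RPKM, the number of reads scaled by the length of the transcript and by the reads of the library. The depth of the libraries, read from the steps between low values, was 0.680 to 1.36 times that of hypothyroid WT replicate 1 and was lowest in the 4 hyperthyroid libraries (0.680 to 0.834). Replicates correlated at 0.985 to 0.993. The T3-induced gene Dio1 stood at 459 to 641 RPKM in hyperthyroid WT mice, against 0.719 to 57.7 RPKM in hypothyroid WT mice and 0.567 to 20.9 RPKM in L-NCOR1ΔID mice, and the highest hypothyroid values of Dio1 were in replicate 3 of both genotypes. Thrsp, also T3-induced, was at 847 to 2360, 209 to 490 and 454 to 1081 RPKM. Ncor1 was at 14.1 to 15.6 RPKM in hypothyroid WT and 12.1 to 13.9 RPKM in L-NCOR1ΔID mice, but a value over the whole transcript does not read the deleted part. Liver identity was checked by 6 hepatocyte markers, whose summed level was 37889 to 49553 RPKM in hypothyroid WT, 19642 to 28159 RPKM in hyperthyroid WT and 31738 to 35934 RPKM in L-NCOR1ΔID livers. Of the 6, Alb (-1.16 on the log2 scale) and Ttr (-1.55) were lower with T3 at an adjusted p under 0.01, while Apoa1 (0.12), Tat (0.29), Cps1 (-0.38) and Asgr1 (-0.23) did not pass. No marker of another cell type was at 0 in all libraries. The summed level of 5 Kupffer cell markers was 29.1 to 39.3, 82.9 to 136 and 29.8 to 77.2 RPKM. With T3, 5 of 5 were higher at an adjusted p under 0.01 (24.5% of all genes tested). Each rose by more than 1 on the log2 scale, and 8.28% of genes passed both limits. By both limits 1 of 5 cholangiocyte, 1 of 5 endothelial and 1 of 3 lymphocyte markers were higher. None of 5 stellate cell markers passed them, and 1 of 3 erythroid markers was lower (3.47% of all genes tested). Fewer cells of a type and less RNA per cell cannot be told apart in whole liver, and the part of these shifts in the results below was not tested.

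In hypothyroid WT livers Slc27a5 had the highest level of the 10 genes (306 ± 7.03 RPKM, mean ± SD, n = 4), followed by Cyp27a1 (153 ± 34.0 RPKM) and Hsd3b7 (137 ± 23.3 RPKM). The lowest was Cyp39a1 with 6.72 ± 4.44 RPKM. Neighbours in this order overlapped between libraries except at 4 steps, which were from Slc27a5 to Cyp27a1, from Hsd3b7 to Akr1d1, from Cyp7b1 to Nr0b2 and from Cyp7a1 to Cyp39a1. In hyperthyroid WT livers Cyp27a1 came first with 329 ± 60.9 RPKM and Nr0b2 last with 15.1 ± 4.59 RPKM, and Cyp39a1 moved from the last to the seventh place. Neighbours in this order overlapped except from Hsd3b7 to Baat, from Akr1d1 to Cyp39a1 and from Cyp8b1 to Nr0b2. L-NCOR1ΔID livers kept Slc27a5 first (386 ± 46.5 RPKM) and Cyp39a1 last (3.08 ± 1.83 RPKM), and here neighbours overlapped except from Slc27a5 to Cyp27a1, from Baat to Cyp8b1 and from Nr0b2 to Cyp7a1. The plot of RPKM by library shows these levels for each mouse.

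**Figure D1:**
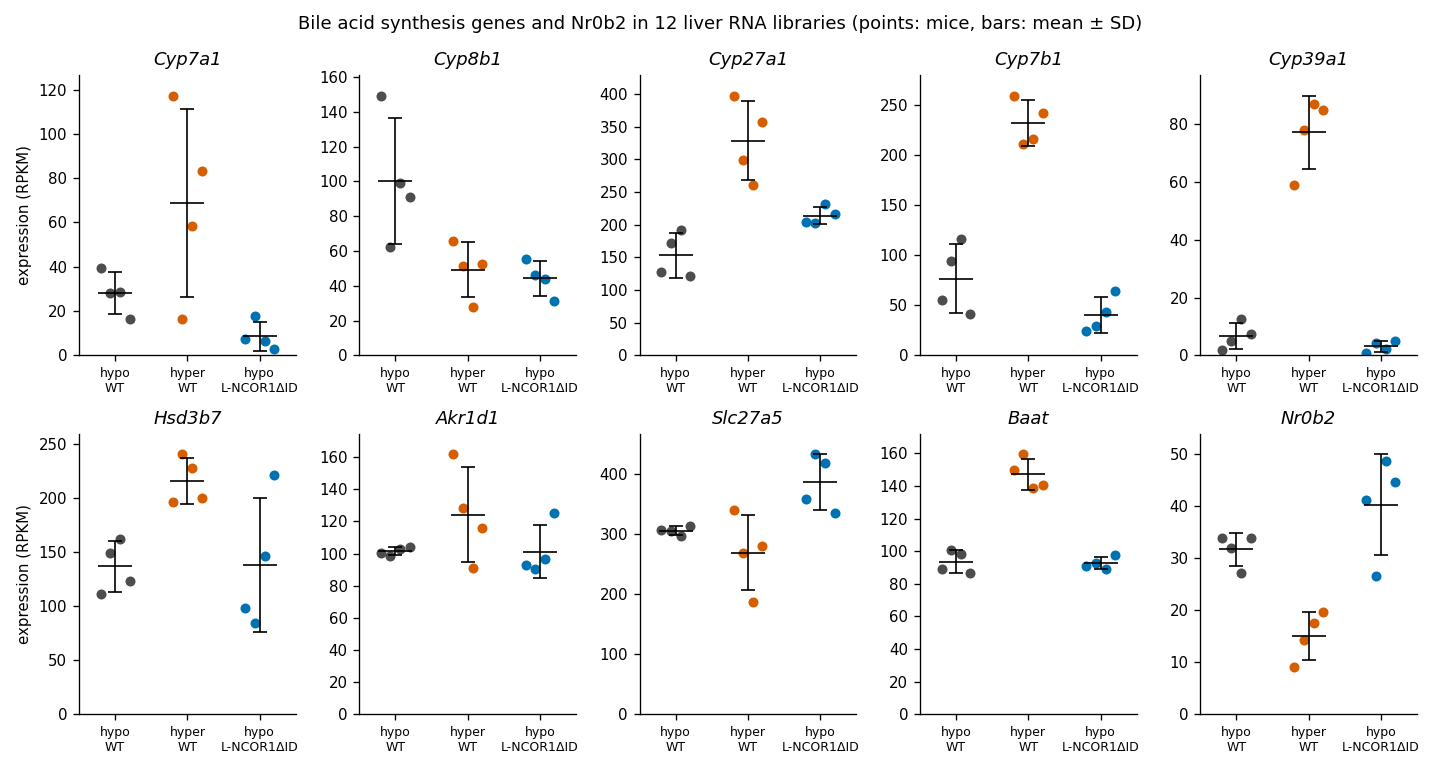
RPKM of the 10 genes in each of 12 liver libraries (points, replicates 1 to 4 from left to right in each group), with the mean ± SD of 4 mice as black bars and each axis starting at 0. The 4 hyperthyroid WT livers lie above the hypothyroid WT livers for Cyp27a1, Cyp7b1, Cyp39a1, Hsd3b7 and Baat and below them for Nr0b2, while Cyp7a1 is spread from 16.3 to 117 RPKM within the hyperthyroid group.

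To find which steps of bile acid synthesis respond to T3, hyperthyroid and hypothyroid WT livers were compared. The genes of the alternative route Cyp39a1, Cyp7b1 and Cyp27a1 were higher with T3 (11.5, 3.02 and 2.15-fold by group means), and Nr0b2 was lower, at 0.477 of its hypothyroid mean. The classical genes Cyp7a1 and Cyp8b1 did not pass the threshold, at 2.44 and 0.492 times their hypothyroid means (log2 fold changes 1.03 and -1.02). By group means Cyp7a1 thus rose no less than Cyp27a1, but its limma adjusted p was 0.14 and its groups overlapped. Of the 10 genes 3 were called higher, against 8.28% of the 13941 genes tested, and 1 lower, against 3.47%, by limma, where a call needed both an adjusted p under 0.01 and a difference of more than 1 on the log2 scale. Without the size limit 5 were higher (24.5%), now with Hsd3b7 and Baat, and 1 was lower (7.71%). Scaling by the median of gene ratios, which takes out the shift of all genes, left 2 higher (5.36%) and 1 lower (4.89%). At an adjusted p under 0.05 Cyp8b1 was a further gene called lower, where 3.89% of genes were. The median log2 fold change of the 10 was 0.66, and that of all genes tested was 0.23. Relative to this shift of all genes, the log2 fold changes were 3.53 for Cyp39a1, 1.48 for Cyp7b1, 0.88 for Cyp27a1, 0.80 for Cyp7a1, 0.44 for Hsd3b7, 0.42 for Baat, 0.03 for Akr1d1, -0.45 for Slc27a5, -1.26 for Cyp8b1 and -1.35 for Nr0b2. The groups did not overlap for 5 genes with higher values (35.8% of all genes tested) and 1 with lower values (10.8%).

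To ask whether these genes differed with the mutant corepressor in the absence of hormone, hypothyroid L-NCOR1ΔID livers were compared with hypothyroid WT livers. The loss of contact with TR alone was not tested. No gene of the 10 passed an adjusted p under 0.01 by limma, where 0.725% of 13790 genes tested were called higher and 0.544% lower. An unadjusted p under 0.05 was found for 5 of the 10 (20.5% of genes tested), which were Cyp7a1, Cyp8b1 and Cyp7b1 with lower and Cyp27a1 and Slc27a5 with higher means, and no other tool was run. At an adjusted p under 0.05 Cyp8b1 was called lower, together with 1.86% of genes tested, and most fits without 1 library lost this call. The median log2 fold change was -0.05 for the 10 genes and 0.03 for all genes tested. Since both comparisons use the same hypothyroid WT mice, the difference between the effect of T3 and that of L-NCOR1ΔID was tested directly between hyperthyroid WT and L-NCOR1ΔID livers. In this test 5 of 10 were called higher (15.5% of 14017 genes tested) and 1 lower (5.70%) at an adjusted p under 0.01, with a median of 0.63 for the 10 and 0.19 for all genes tested. Under scaling by gene ratios the numbers were 3 (7.51% of genes) and 1 (9.19%). These groups did not overlap for 4 genes with higher values (28.7%) and 1 with lower values (9.57%), and at an adjusted p under 0.05 Slc27a5 was also lower, where 10.1% of genes were. The plot of fold changes gives the 3 comparisons side by side.

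**Figure D2:**
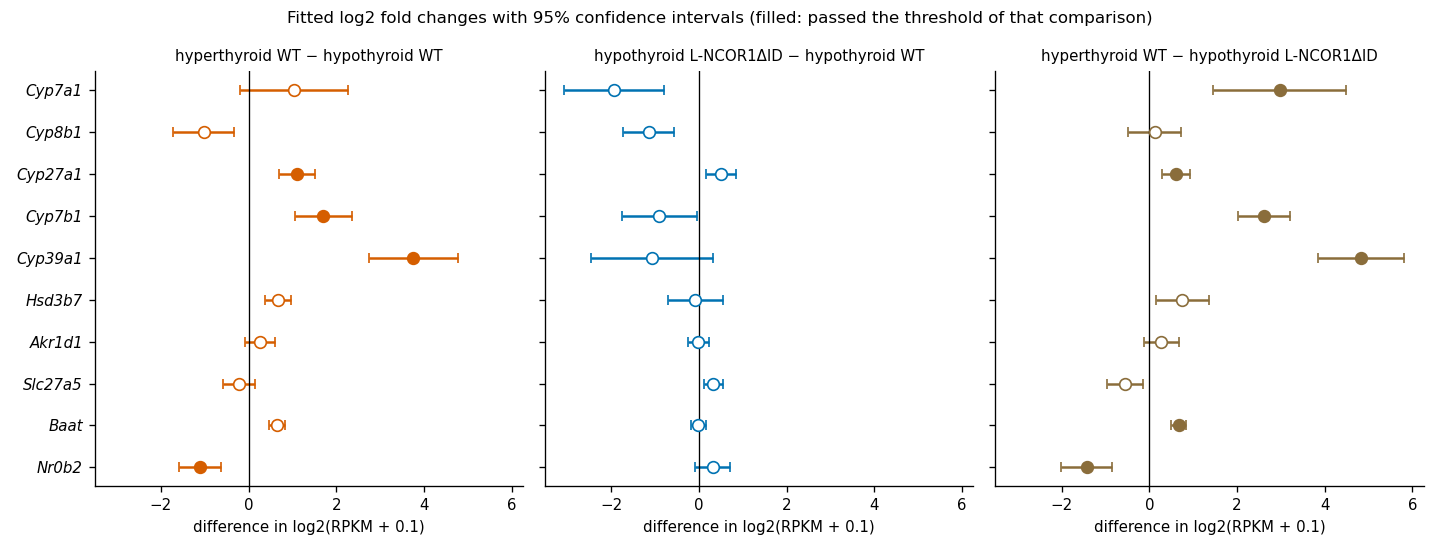
Difference in log2(RPKM + 0.1) between group means for the 10 genes (points) with 95% confidence intervals from limma (bars) in the 3 comparisons named above the panels, 4 mice per group. Filled points passed the threshold of that comparison, which were Cyp27a1, Cyp7b1, Cyp39a1 and Nr0b2 in the left panel, none in the middle panel, and Cyp7a1, Cyp27a1, Cyp7b1, Cyp39a1, Baat and Nr0b2 in the right panel.

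Cyp7a1 (chr4:6192759-6202778, minus strand, 6 exons), the rate-setting enzyme of the classical route, was measured at 39.5, 28.3, 28.8 and 16.3 RPKM in hypothyroid WT replicates 1 to 4. With T3 it was at 117, 16.3, 58.4 and 83.4 RPKM. Hyperthyroid replicates 1, 3 and 4 thus lay above each hypothyroid library, whereas replicate 2 lay at the level of the lowest, so that the groups overlapped. The log2 fold change was 1.03 ± 0.55 (SE, limma adjusted p = 0.14). When hyperthyroid replicate 2 was left out it was 1.62 with an adjusted p of 0.0039, past the threshold, and without hyperthyroid replicate 1 it was 0.67 (adjusted p = 0.32). In L-NCOR1ΔID livers Cyp7a1 stood at 7.31, 18.0, 6.55 and 2.70 RPKM, and 3 of these 4 libraries were below the lowest WT library. This difference was -1.94 ± 0.50 on the log2 scale (95% confidence interval -3.07 to -0.81) and did not pass after adjustment (limma adjusted p = 0.066). The effects of T3 and of L-NCOR1ΔID on Cyp7a1 differed by 2.97 ± 0.68 (limma adjusted p = 0.0085), a call that held in 2 of 8 fits without 1 library (adjusted p 0.0027 to 0.025), was lost under scaling by gene ratios (adjusted p = 0.014) and involved groups that overlapped.

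Cyp8b1 (chr9:121823474-121825423, minus strand, 1 exon), the sterol 12α-hydroxylase, had hypothyroid WT values of 149, 62.5, 98.8 and 90.8 RPKM. In hyperthyroid WT livers the values were 65.9, 51.3, 27.6 and 52.6 RPKM. Of the 4 hyperthyroid values, 3 were below the lowest hypothyroid one. The log2 fold change was -1.02 ± 0.31 (limma adjusted p = 0.021), which missed the threshold. L-NCOR1ΔID livers had 55.4, 46.2, 43.9 and 31.4 RPKM, each below the 4 hypothyroid WT values (groups with lower values did not overlap for 5.36% of genes tested). The difference from WT was -1.14 ± 0.26 (95% confidence interval -1.72 to -0.56) with a limma adjusted p of 0.042. With 1 library left out, this adjusted p was under 0.05 only without hypothyroid WT replicate 2 (0.029) and otherwise reached up to 0.10. It was 0.063 without a variance trend and 0.16 with no filter on low genes. Between hyperthyroid WT and L-NCOR1ΔID livers Cyp8b1 differed by 0.12 (95% confidence interval -0.48 to 0.72, limma adjusted p = 0.75), a difference whose sign turned under scaling by gene ratios (-0.08).

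The ratio of Cyp8b1 to Cyp7a1 within a library does not depend on how libraries are scaled. It was 3.78, 2.21, 3.43 and 5.56 in hypothyroid WT replicates 1 to 4 and 0.562, 3.15, 0.472 and 0.631 in hyperthyroid WT replicates. L-NCOR1ΔID livers had ratios of 7.58, 2.57, 6.70 and 11.6. Cyp8b1 thus had the higher RPKM in each hypothyroid library of both genotypes, and Cyp7a1 had the higher RPKM in 3 of 4 hyperthyroid livers. The mean log2 ratio was 1.82 ± 0.55 (SD) in hypothyroid WT, -0.23 ± 1.27 in hyperthyroid WT and 2.62 ± 0.90 in L-NCOR1ΔID livers. The difference of -2.05 with T3 had a two-sided exact permutation p of 0.0571 (0.171 after Benjamini-Hochberg adjustment over 6 tests of ratios), where the smallest p that 4 against 4 allows is 0.0286. The difference of 0.80 with L-NCOR1ΔID had an exact permutation p of 0.2 (adjusted p = 0.4). For the ratio of Cyp7b1 to Cyp7a1, the exact permutation p was 0.286 to 0.714 in the 3 comparisons. The plot of Cyp8b1 against Cyp7a1 gives each library.

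**Figure D3:**
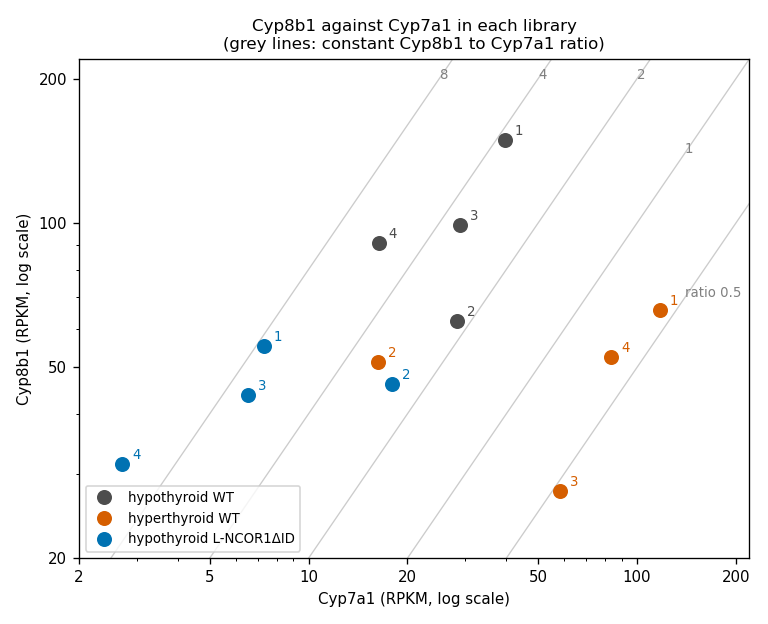
Cyp8b1 against Cyp7a1 in RPKM, both on log scales, for each of 12 libraries, with numbers giving the replicate and grey lines of constant ratio. Hyperthyroid replicates 1, 3 and 4 lie between the lines of ratio 1 and just under 0.5, whereas hyperthyroid replicate 2 (ratio 3.15) lies among the hypothyroid libraries.

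Cyp27a1 (chr1:74760148-74784464, plus strand, 9 exons), the mitochondrial sterol 27-hydroxylase that opens the alternative route, had 127, 172, 192 and 122 RPKM in hypothyroid WT livers. Its hyperthyroid values were 398, 299, 260 and 358 RPKM, each above the hypothyroid ones. The log2 fold change was 1.11 ± 0.18 (limma adjusted p = 0.0011), and under scaling by gene ratios it was 0.87 (adjusted p = 0.0065), no longer past the size threshold. L-NCOR1ΔID livers had 205, 202, 232 and 216 RPKM, above the 4 hypothyroid WT values, as was the case for 7.78% of genes tested. This difference of 0.51 ± 0.15 did not pass the test (limma adjusted p = 0.095). Cyp27a1 differed between hyperthyroid WT and L-NCOR1ΔID livers by 0.60 ± 0.14 (limma adjusted p = 0.0093), a call lost under scaling by gene ratios (adjusted p = 0.092) and in 7 of 8 fits that left out 1 library.

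Cyp7b1 (chr3:17971950-18143338, minus strand, 6 exons), the oxysterol 7α-hydroxylase, was at 55.7, 93.7, 116 and 41.0 RPKM in hypothyroid WT and at 259, 211, 216 and 241 RPKM in hyperthyroid WT livers. The hyperthyroid values were each above the hypothyroid ones and lay closer together, with a coefficient of variation of 9.74% against 45.1%, a description without a test. The log2 fold change was 1.71 ± 0.29 (limma adjusted p = 0.0014), a call lost with no filter on low genes (adjusted p = 0.011). In L-NCOR1ΔID livers it was at 24.7, 29.5, 43.4 and 64.4 RPKM, within and below the hypothyroid WT range. The log2 difference of -0.90 ± 0.38 did not pass (limma adjusted p = 0.22). The effects of T3 and of L-NCOR1ΔID differed by 2.61 ± 0.26 (limma adjusted p = 1.6e-04), past the threshold in 8 of 8 fits without 1 library.

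Cyp39a1 (chr17:43804459-43887838, plus strand, 11 exons), the 24-hydroxycholesterol 7α-hydroxylase, showed the largest T3 difference of the 10 genes. Hypothyroid WT livers had 2.02, 4.95, 12.5 and 7.39 RPKM, and hyperthyroid WT livers had 59.0, 77.9, 86.8 and 84.9 RPKM. The lowest hyperthyroid library was thus well above the highest hypothyroid one, which was replicate 3. The log2 fold change was 3.76 ± 0.45 (limma adjusted p = 2.3e-04). L-NCOR1ΔID livers had 0.931, 4.31, 2.24 and 4.86 RPKM, overlapping hypothyroid WT, with a log2 difference of -1.07 ± 0.62 (limma adjusted p = 0.37). Relative to L-NCOR1ΔID livers, hyperthyroid WT livers were 4.83 ± 0.44 higher on the log2 scale (limma adjusted p = 9.2e-05). The table lists 3 transcripts of Cyp39a1 whose values ran within 0.912 to 89.1 RPKM and rose in each case.

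Of the enzymes that act on the steroid rings, Hsd3b7 (chr7:134944118-134947316, plus strand, 7 exons), a 3β-hydroxysteroid dehydrogenase, had 112, 149, 162 and 123 RPKM in hypothyroid WT livers. In hyperthyroid WT livers it was at 196, 240, 228 and 200 RPKM, without overlap. Its log2 fold change of 0.67 ± 0.13 had a limma adjusted p of 0.0026 but stayed under the size threshold. This adjusted p was 0.023 under scaling by gene ratios, 0.040 with the 12 libraries in one fit and 0.013 with no filter on low genes. L-NCOR1ΔID livers were the most variable for this gene, with 98.6, 84.0, 146 and 222 RPKM and a coefficient of variation of 45.1%, and the difference from WT was -0.08 (95% confidence interval -0.71 to 0.55, limma adjusted p = 0.91) with a sign that turned when single libraries were left out.

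Akr1d1 (chr6:37480173-37518815, plus strand, 9 exons), the 5β-reductase, was at 98.4 to 104 RPKM in hypothyroid WT livers. Hyperthyroid WT livers ranged wider, with 162, 128, 90.9 and 116 RPKM, and overlapped them (log2 fold change 0.26 ± 0.15, limma adjusted p = 0.17). L-NCOR1ΔID livers had 92.6, 90.4, 96.7 and 125 RPKM, with a difference from WT of -0.01 and a 95% confidence interval from -0.25 to 0.22 (limma adjusted p = 0.96). Single libraries left out turned the sign of this small difference.

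Among the conjugating enzymes, Baat (chr4:49502294-49519429, minus strand, 4 exons) had 89.0, 101, 98.1 and 86.5 RPKM in hypothyroid WT livers. Hyperthyroid WT livers had 150, 159, 139 and 140 RPKM, each above the hypothyroid values, and the log2 fold change of 0.65 ± 0.08 had a limma adjusted p of 2.3e-04, below the size threshold. In L-NCOR1ΔID livers it was at 91.0, 92.8, 89.1 and 97.6 RPKM, and the difference from WT was -0.01 (95% confidence interval -0.18 to 0.15), with a sign that turned when single libraries were left out. Hyperthyroid WT and L-NCOR1ΔID livers differed by 0.67 ± 0.08 (limma adjusted p = 3.8e-04).

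Slc27a5 (chr7:13573695-13583499, minus strand, 10 exons), the bile acid coenzyme A ligase, was nearly constant between hypothyroid WT mice with 307, 305, 297 and 314 RPKM. Hyperthyroid WT livers had 340, 269, 187 and 281 RPKM on both sides of these, and the log2 fold change was -0.22 ± 0.16 (limma adjusted p = 0.28). L-NCOR1ΔID livers had 359, 433, 418 and 336 RPKM, which overlapped the hyperthyroid WT values. Each of them lay above the 4 hypothyroid WT libraries, as was the case for 7.78% of genes tested. This difference of 0.33 ± 0.10 (95% confidence interval 0.11 to 0.55) had a limma adjusted p of 0.10 and did not pass.

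Nr0b2 (chr4:133109291-133112451, plus strand, 2 exons), the gene of SHP whose upstream sequence is printed above, was at 33.8, 31.8, 27.1 and 33.9 RPKM in hypothyroid WT livers. With T3 it was at 9.09, 14.2, 17.5 and 19.7 RPKM, each below the hypothyroid values. The log2 fold change was -1.11 ± 0.21 (limma adjusted p = 0.0025), and without hyperthyroid replicate 1, the lowest, it was -0.89 (adjusted p = 1.0e-03), no longer past the size threshold. With no filter on low genes the adjusted p was 0.017. L-NCOR1ΔID livers had 41.1, 26.6, 48.7 and 44.7 RPKM, of which 3 were above and 1 was below the hypothyroid WT range. The log2 difference from WT of 0.32 ± 0.18 (95% confidence interval -0.08 to 0.72) did not pass (limma adjusted p = 0.35). Hyperthyroid WT livers were 1.43 ± 0.26 lower than L-NCOR1ΔID livers on the log2 scale (-1.43, limma adjusted p = 0.0030), past the threshold in 7 of 8 fits without 1 library and not without L-NCOR1ΔID replicate 3 (adjusted p = 0.011).

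The genes whose values over the 12 libraries ran most like those of Cyp7a1, Cyp8b1 and Nr0b2 were sought among 14310 genes. For Nr0b2 these included Lmntd2 (Pearson r = 0.94) and Ephx1, microsomal epoxide hydrolase (0.94). For Cyp7a1 they were Snrpa1 (0.95), Adamdec1 (0.95) and Proser2 (0.95). Cyp8b1 was less closely followed, by Pcyt1a (0.88), which encodes the rate-setting enzyme of phosphatidylcholine synthesis, A930007I19Rik (0.84) and Gpc1 (0.83). These correlations describe the libraries and their 3 groups, which the genes share, and carry no test. A930007I19Rik had group means of 0.085 to 0.27 RPKM, close to the 0.1 RPKM added before taking logs. Lmntd2 (0.19 to 1.1 RPKM) and Adamdec1 (0.39 to 2.3 RPKM) were low as well. Within groups, after the group means were taken out, the r of Cyp7a1 was 0.35 with Cyp8b1 and -0.44 with Nr0b2. Neither was the largest of its sign among the bile acid synthesis genes, since r was 0.39 with Slc27a5 and -0.67 with Hsd3b7. The inverse relation with Nr0b2 was thus not particular to that gene, and these values carry no test either.

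The wider pathway was described by 3 lists. Among other enzymes of bile acid synthesis 2 of 9 genes tested were higher with T3 (8.28% of all genes) and 2 lower (3.47%), and the median log2 fold change was 0.16 against 0.23 for all genes tested. Abcd3, a peroxisomal transporter of bile acid intermediates, rose from 119 ± 26.6 to 347 ± 18.6 RPKM (1.57 on the log2 scale, limma adjusted p = 7.1e-05). Cyp2c70, which makes the muricholic acids of mice, rose from 288 ± 47.5 to 730 ± 183 RPKM (1.32, limma adjusted p = 6.6e-04). Scp2, the peroxisomal thiolase of side chain shortening, fell from 772 ± 72.5 to 342 ± 29.5 RPKM (-1.17, limma adjusted p = 4.6e-05). Cyp46a1, which forms the substrate of CYP39A1, fell from 4.08 ± 2.88 to 0.610 ± 0.258 RPKM (-2.41, limma adjusted p = 0.0017). It thus fell while Cyp39a1 rose. By limma none of the 9 was called in L-NCOR1ΔID livers, with 2 at an unadjusted p under 0.05 against 20.5% of all genes (median -0.18, 0.03 for all genes).

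Of 14 regulators of bile acid synthesis none was called higher by limma (8.28% of all genes) and 2 were called lower (3.47%) with T3, with a median log2 fold change of -0.25 against 0.23 for all genes. An unadjusted p under 0.05 in either direction was found for 11 of the 14 and for 56.5% of all genes. Nr1i3, the receptor CAR, fell from 173 ± 25.5 to 44.4 ± 8.81 RPKM (-1.97, limma adjusted p = 2.3e-05), and Dbp, a circadian activator of Cyp7a1, fell from 65.8 ± 20.6 to 23.1 ± 9.11 RPKM (-1.56, limma adjusted p = 0.0054). In L-NCOR1ΔID livers 2 of 14 were lower (0.544% of all genes tested) and none higher (0.725%), with 4 at an unadjusted p under 0.05 (20.5%) and a median of -0.16 against 0.03. Nr1h4, the gene of FXR, fell from 60.6 ± 1.72 to 39.3 ± 1.59 RPKM (-0.62, limma adjusted p = 8.8e-04), and Nr1i3 fell to 81.7 ± 6.06 RPKM (-1.07, limma adjusted p = 0.0014). The direct test between hyperthyroid WT and L-NCOR1ΔID livers called 4 higher (15.5% of all genes) and 4 lower (5.70%), and under scaling by gene ratios 1 higher (7.51%) and 4 lower (9.19%). Lower in hyperthyroid WT than in L-NCOR1ΔID livers were Dbp (-1.65), Nr1i3 (-0.90), Nr1i2 (-0.61) and Nr5a2 (-0.60). Higher were Prox1, a corepressor of Cyp7a1 (0.74), Rxra (0.59), Hnf4a (0.57) and Nr1h3 (0.43), of which only Prox1 stayed called under scaling. For Nr1h4 this test gave 0.29 with a limma adjusted p of 0.061.

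Of 10 bile acid transporters tested 3 were higher with T3 (8.28% of all genes) and 1 was lower (3.47%), with a median log2 fold change of -0.09 against 0.23 for all genes. Abcb11, the bile salt export pump, rose from 82.5 ± 15.2 to 208 ± 52.9 RPKM (1.32, limma adjusted p = 5.2e-04) and Abcb4, the phospholipid flippase of bile, from 40.2 ± 8.94 to 107 ± 15.4 RPKM (1.42, limma adjusted p = 1.7e-04). Slc51b, a subunit of the basolateral exporter OST, was low and rose from 0.243 ± 0.180 to 4.03 ± 2.09 RPKM (3.63, limma adjusted p = 0.0010). Abcc3, a basolateral efflux pump, fell from 135 ± 24.6 to 4.43 ± 1.23 RPKM (-4.92, limma adjusted p = 2.4e-06). By limma none of the 10 was called in L-NCOR1ΔID livers, where 0.725% of all genes were called higher and 0.544% lower. An unadjusted p under 0.05 was found for 2 of them, near the 20.5% of all genes (median -0.11 against 0.03).

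**Figure D4:**
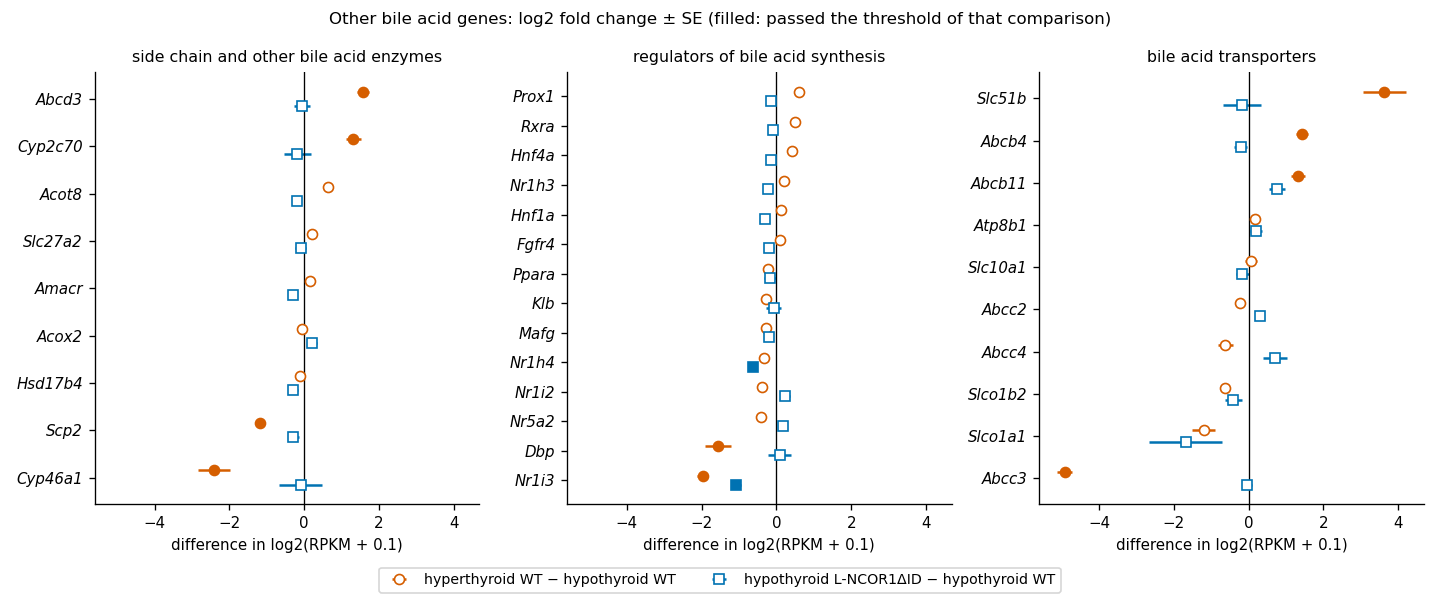
Difference in log2(RPKM + 0.1) ± SE for other bile acid genes in 3 lists, with T3 against hypothyroid WT as orange circles and L-NCOR1ΔID against hypothyroid WT as blue squares, 4 mice per group. Filled symbols passed the threshold of their comparison, and with L-NCOR1ΔID these are Nr1h4 (-0.62) and Nr1i3 (-1.07).

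The deposited list of H3 acetylated regions, in which regions found for H3K9Ac or H3K27Ac in hypothyroid or hyperthyroid WT livers are merged, gives positions without a level, so that no change of acetylation is given. A region covered the start site of each of the 10 genes, as it did for 86.2% of 12039 expressed genes. These regions were 9957 bp (Cyp7a1) to 22166 bp (Cyp7b1) long, against a median of 3929 bp over the covered start sites of expressed genes. Within 100 kb of the 10 start sites lay 97 regions, from 4 at Cyp39a1 to 16 at Slc27a5. The median number was 9.5 per gene and that of expressed genes was 7. At Nr0b2 the region (chr4:133107118-133122117) spanned 15000 bp and held the whole printed upstream window and transcript, and at Cyp7b1 there were 4 regions over the transcript. The map of regions by distance from the start site shows the layout.

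**Figure D5:**
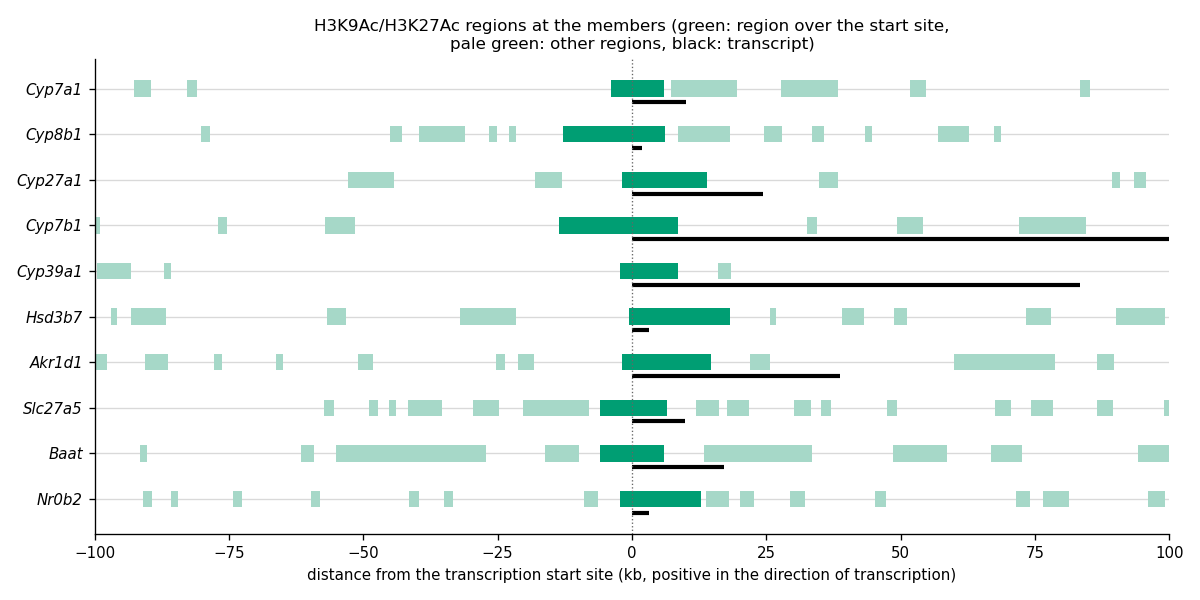
Positions of H3 acetylated regions within 100 kb of the start sites of the 10 genes, with distance in kb on the axis, the region over the start site in green, other regions in pale green and the transcript as a black line. The region over the start site runs on both sides of it at each gene, and Cyp39a1 has 1 further region inside its transcript.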

How the data were processed

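Poly(A) RNA was sequenced from 12 livers, and per the labels each library has runs from 2 instrument models, which were not separated here. Alignment by the authors was to mm9 with STAR, and the values they deposited are RPKM per RefSeq transcript, computed with HOMER. Read counts were not used here. The authors' own tests used DESeq2 on counts, whereas the tests here were fitted to log2(RPKM + 0.1) because RPKM are not counts. The list of acetylated regions deposited by the authors holds positions only. The other ChIP-seq libraries were not analysed here.

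The first listed transcript stood for each gene, and 1 row of 31370 had no gene name (at most 0.00079% of summed RPKM) and was left out. limma 3.58.1 (R 4.3.3) was run on the 2 groups compared, with a variance trend, for those genes that reached 0.1 RPKM in 4 or more of the libraries compared, with Benjamini-Hochberg adjustment over all genes tested. Each of the 10 genes passed this filter in each comparison, and no exon of another gene overlapped theirs in GENCODE M1. Log2 fold changes are on the log2(RPKM + 0.1) scale, which understates those of low genes. The fits were tested on simulated data. Scripts used Python 3.11.15 with numpy 2.4.6 and pandas 2.3.3, and figures were drawn with matplotlib 3.10.9.

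The 10 genes and the lists were chosen with earlier results of these data known. From each list up to 4 genes with the largest change past a threshold are named, besides the 10 genes, 3 genes most correlated with each of Cyp7a1, Cyp8b1 and Nr0b2, and Ncor1, Dio1 and Thrsp as checks. Among the correlated genes, 1 is not reported here. Nr1h4, Nr5a2, Rxra, Hnf4a and Nr1h3 in the direct test were named after its values were seen. The DR4-like scan of regions was chosen after the data were seen. Sequences came from the mm9 genome and from RefSeq (GRCm38.p6).

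Replicates are separate mice. Their numbers were not taken to pair them, and same-numbered libraries correlated at -0.145 to 0.176 in their deviations from group means. Hyperthyroid WT and L-NCOR1ΔID replicates 1 and 3 matched best with the hypothyroid WT library of their number. Replicates 2 and 4 did not, nor did any between hyperthyroid WT and L-NCOR1ΔID. Whether libraries of a number share a batch cannot be told from this, and fits with the number as a block are given below.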

Additional observations from a re-analysis of the deposited data

How the results depend on the processing

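The settings changed were the pseudocount (1 or 0.01), the filter (none, or a mean of 1 RPKM), the libraries in the fit (12 together), the scaling (median of gene ratios), the variance trend, the threshold (adjusted p under 0.05), the transcript (highest mean), the replicate number as a block, and each library left out in turn. The number of the 10 genes called higher with T3 was 3, and it was 2 with no filter (Cyp7b1 lost) and under scaling (Cyp27a1 lost), and 4 without hyperthyroid WT replicate 2 (Cyp7a1 added). The number called lower with T3 was 1, and it was 2 with the threshold of 0.05, 0 with no filter and 0 to 1 with 1 library left out (0 without hyperthyroid WT replicate 1). The number called lower in L-NCOR1ΔID livers was 0, and 1 with the threshold of 0.05. Between hyperthyroid WT and L-NCOR1ΔID livers the number higher was 5, and 3 under scaling by gene ratios, without a filter, without a variance trend and with the replicate block, and 3 to 4 with 1 library left out. The number lower was 1, and 2 with the threshold of 0.05, 0 with no filter and 0 to 1 with 1 library left out (0 without L-NCOR1ΔID replicate 3). The replicate block changed no other count of the 10 genes. Over all genes, 100 were called higher and 75 lower in L-NCOR1ΔID livers, and these were 21 and 22 with no filter, 20 and 25 with the block, 63 and 57 with no variance trend, 139 and 118 with 12 libraries together, 344 and 257 with the threshold of 0.05, and 36 to 110 and 28 to 77 with 1 library left out. With T3, 1155 and 484 became 575 and 319 with a pseudocount of 1 and 747 and 681 after scaling. In the direct test, 2176 and 799 became 1292 and 477 with no filter, 1152 and 490 with the block, 1051 and 1286 after scaling, 3995 and 1412 with the threshold of 0.05, and 1182 to 1905 and 469 to 767 with 1 library left out. The cause of these changes was not tested.

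Differences near 0 turned sign. In L-NCOR1ΔID against WT livers, Hsd3b7 ran from -0.34 to 0.12 with 1 library left out (0.05, 0.12 and 0.0096 where it was positive), Akr1d1 from -0.12 to 0.036 (0.024, 0.036 and 0.0038) and Baat from -0.050 to 0.024 (0.0053, 0.024 and 0.010). Between hyperthyroid WT and L-NCOR1ΔID livers, Cyp8b1 was at -0.076 under scaling by gene ratios and ran from -0.043 to 0.38 with 1 library left out, with -0.035 without L-NCOR1ΔID replicate 4 and -0.043 without hyperthyroid replicate 1. The log2 ratio of Cyp7b1 to Cyp7a1 differed by -0.36, and by -0.93 to 0.34 with 1 library left out (0.34 without L-NCOR1ΔID replicate 4). The count of 97 acetylated regions within 100 kb was 55 within 50 kb and 161 within 200 kb.

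RPKM carry no counting error of their own, and relative depth was lowest in the hyperthyroid libraries. With 4 mice per group, changes of Cyp7a1 and Cyp39a1 are the least precise of the 10 genes.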
